A study of Mus musculus with 904 samples.

Results

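The 9 genes described here belong to type I interferon signalling and class I antigen presentation. They are the interferon receptor chains Ifnar1 and Ifnar2, the RNA-sensing adaptor Mavs, the interferon-induced effectors Ifit3, Ifitm3 and Bst2, and the class I genes H2-K1, H2-D1 and B2m. They were chosen by name, as a list, out of 32285 genes in the count table. Their reads were followed in 835 of 904 single brain nuclei, the nuclei with at least 1000 genes and at least 10000 reads.

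The nuclei came from C57Bl/6J mice given an adeno-associated virus with the PHP.eB capsid, a capsid known to reach the mouse brain from the blood. The virus carried a histone H2B-tagged fluorescent reporter under the DLX2.0 enhancer, at 5e11 vector genomes per mouse in young adulthood, and fluorescent nuclei were sorted 3 to 4 weeks later and sequenced singly with SMART-Seq v4. All 904 nuclei are labelled YFP-expressing, those titled dTomato-H2B included, and primary visual cortex, while the series text also names anterior lateral motor cortex and striatum, so the region of a nucleus was read only from its genes. The groups are 16 construct titles with 39 to 94 kept nuclei each. Of these titles, 12 place 1 of 6 RNA elements (BORG, 3xBORG, 3xsmOPT, U7snRNAOPT, 3xU7snRNAOPT or U7snRNAOPT-3'box) before or after SYFP2-H2B, and the others are dTomato-H2B, SYFP2-10aa-H2Bmod-BC, SYFP2-P2A-3XFLAG-H2B and SYFP2-P2A-3XFLAG-H2B-SIRLOIN. Each nucleus also has 1 of 16 treatment codes, and the codes do not follow the titles: a title holds 4 to 5 codes. Every nucleus comes from a mouse that received virus, and no uninjected group was analysed here, so levels with and without virus cannot be compared. The labels name no animal, so p-values measure only the spread between sums of nuclei, which may be technical.

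Type I interferons bind a receptor made of the IFNAR1 and IFNAR2 chains, which signals through kinases to switch on interferon-stimulated genes. MAVS sits on the mitochondrial outer membrane and passes the signal of the viral-RNA sensors RIG-I and MDA5 to the induction of interferon. IFIT proteins bind viral RNA, IFITM3 blocks the entry of enveloped viruses at endosomes, and BST2 (tetherin) holds budding virions at the cell surface. H2-K1 and H2-D1 are the classical class I heavy chains of this mouse strain, B2m is the light chain that all of them need, and class I genes are themselves raised by interferon. In healthy brain, class I genes are known to be strongest in endothelial cells and microglia and low in most neurons.

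An interferon response motif was found in some of the 9 promoters. The promoter windows (250 bases before to 50 after each start site, RefSeq, build GRCm38.p6) of all 9 genes were searched on both strands for GAAA, any 2 bases and GAAA again, the core letters of the interferon-stimulated response element. Of the 9 genes, 4 had a match, against 1131 of 32851 windows in all, or 3.44%. The background counts windows rather than genes, and some genes have several, H2-K1 among them. For Ifitm3 the matches lay after the start site. The 3 genes with matches before the start are shown in the direction of the gene, 5′ to 3′ on 100 bases each, with the matches in capitals. The match of B2m starts 139 bases before its start site (chr2:122147528-122147627, plus strand), and those of Bst2 overlap, at 130 and 124 bases (chr8:71537523-71537622, minus strand). Those of Ifit3 read on the opposite strand at 156 and 122 bases (chr19:34583353-34583452, plus strand).
B2m: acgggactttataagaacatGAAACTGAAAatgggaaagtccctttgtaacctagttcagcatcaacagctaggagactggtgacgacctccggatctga
Bst2: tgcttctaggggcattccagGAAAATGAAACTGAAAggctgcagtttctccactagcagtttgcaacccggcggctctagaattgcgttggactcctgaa
Ifit3: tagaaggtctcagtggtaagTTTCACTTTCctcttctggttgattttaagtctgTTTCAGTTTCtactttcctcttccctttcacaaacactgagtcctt
The 3 genes did not behave alike in these nuclei: B2m was the most widely detected of the 9, while Ifit3 and Bst2 were among the rarest. The windows of Ifnar1, Ifnar2, Mavs, H2-K1 and H2-D1 held no match, which says only that these letters are not in those windows.

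Nuclei were put into classes by the counts per 1000000 reads (CPM) of 1 gene each. Rgs9 of at least 20 with Slc17a7 under 20 marks striatal projection neurons, Sst of at least 100 and Pvalb of at least 20 (with Sst under 100) mark interneurons, and Slc17a7 of at least 50 marks cortical excitatory neurons. Aqp4 and Mog, each of at least 20, mark astrocytes and oligodendrocytes. This gave 214 Rgs9, 114 Sst, 92 Pvalb, 134 Slc17a7, 35 Aqp4 and 37 Mog nuclei, while 92 nuclei met more than 1 rule and 117 met none. The labels of the classes were checked on other genes: at least 2 times the level of the other classes was seen for 10 of 12 striatal, 6 of 8 Sst, 6 of 8 Pvalb, 6 of 8 excitatory, 8 of 8 astrocyte and 8 of 8 oligodendrocyte markers. Median genes per nucleus differed by class, from 3481.5 in Slc17a7 to 1144 in Mog nuclei. Reads per kept nucleus ran from 30023 to 719419, with a median of 260274. For tests, counts were summed per title and class over at least 3 nuclei, which gave 70 sums of 663300 to 12096272 reads.

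Some libraries stood apart and carry much of the rarer signal. After the data were seen, 7 libraries were found with reads of 8 or 9 of 9 endothelial markers (such as Cldn5, Flt1 and Cdh5), while the other 828 had at most 3. Of 12 microglial markers, the library titled U7snRNAOPT-SYFP2-H2B-BC had reads of 8, and the rest of the 7 had reads of 0 to 3. That library had the highest H2-D1 (2968 CPM) and Bst2 (305 CPM) of the 7. These 7 hold 4018 to 10402 genes against a median of 2781 in the others, and 5 of them met more than 1 class rule, 1 is in the Slc17a7 class and 1 in the Rgs9 class. Of the 9 genes, 6 to 9 were detected in each of them, and at most 4 in any other nucleus. Ifitm3 was at 1042 CPM in these libraries and 1.47 CPM in the rest, B2m at 2144 and 60.3 CPM, H2-D1 at 1468 and 45.5 CPM, and Bst2 at 156 and 0.86 CPM. They held 89.5% of all Ifitm3 reads, 68.6% of Bst2, 30.4% of Ifit3, 30.03% of B2m, 28.05% of H2-D1 and 19.5% of H2-K1, but 2.78% of Ifnar1 and 1.86% of Mavs reads. Whether such a library is 1 nucleus or more than 1 was not tested, and values without them are given beside the results that they move most.

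**Figure D1:**
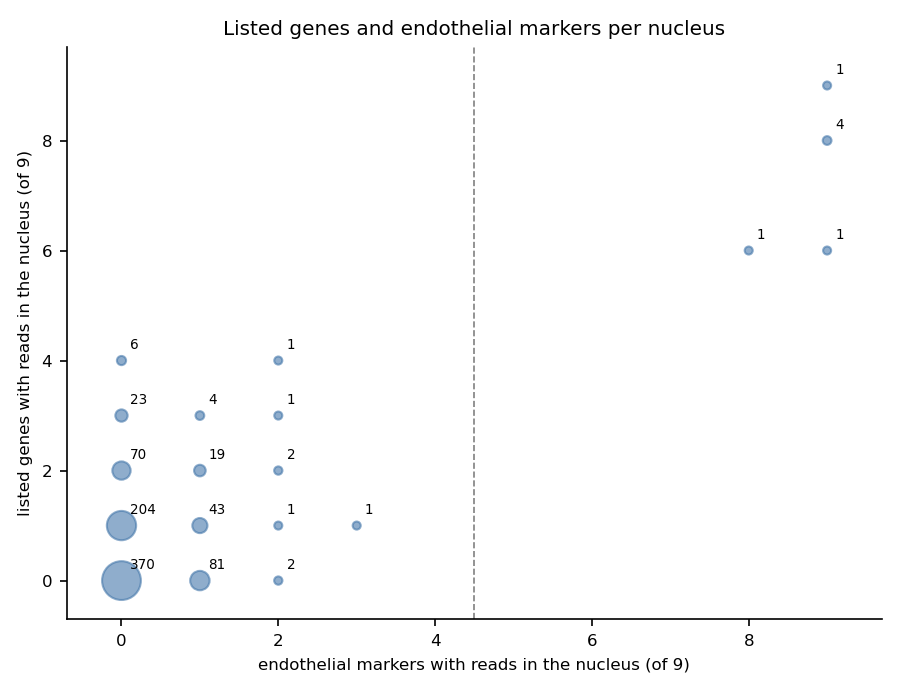
Number of the 9 listed genes with reads (vertical) against the number of 9 endothelial markers with reads (horizontal) in each of the 835 kept nuclei; larger points stand for more nuclei. The 7 libraries with 8 or 9 markers sit alone at 6 to 9 listed genes, while every other nucleus has at most 4.

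Few nuclei carried any of these genes. Of 835 nuclei, 453 had no read of any of them, 249 had reads of 1 gene, 91 of 2, 28 of 3 and 7 of 4. B2m was detected in 173 nuclei (20.7%, exact 95% interval 18.02% to 23.6%) and H2-D1 in 120 (14.4%). The receptor chains came next, with Ifnar1 in 109 nuclei (13.1%) and Ifnar2 in 92 (11.02%), and H2-K1 followed with 52 (6.23%). The others were rare: Ifit3 in 15 nuclei, Ifitm3 and Bst2 in 13 each and Mavs in 9. Intervals cover counting error only, since reads are PCR copies without molecular identifiers.

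A nucleus that had a gene usually had many reads of it. The median in positive nuclei was 65 reads for B2m, 50 for Ifnar1 and 32.5 for Ifnar2, and it reached 114 for Mavs and 190 for Ifitm3. For the rare genes, single nuclei therefore set the level: 1 nucleus held 26.3% of all Mavs reads and 5 held 89.5%, while 1 held 25.7% of the Ifit3 reads. For B2m the top nucleus held 7.76%. Scaled by exonic length, the pooled levels were 99.1 CPM per kb for B2m, 24.2 for H2-D1, 20.5 for Ifitm3, 9.42 for H2-K1, 7.29 for Ifnar2 and 6.32 for Ifnar1. This scaling holds only if reads were counted on exons, which is not stated. Bst2, Ifit3 and Mavs lay at 3.00, 2.87 and 2.67 CPM per kb. Ifitm3 thus lies next to H2-D1 by this scaled level but near the end by nuclei, its reads lying in few of them.

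**Figure D2:**
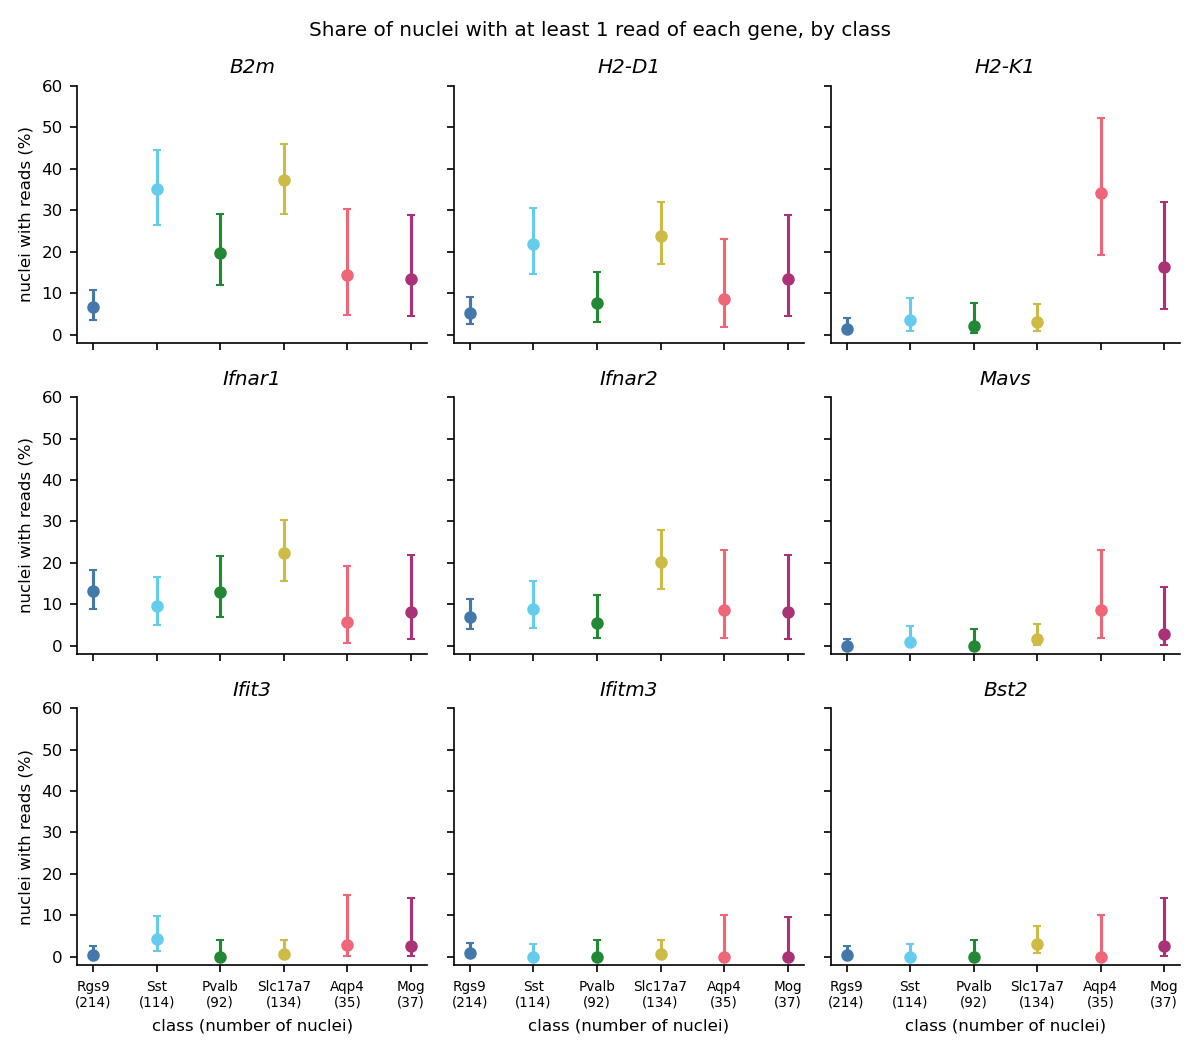
Share of nuclei with at least 1 read of each gene (vertical, percent) in the 6 classes (horizontal, number of nuclei in brackets); bars are exact 95% intervals. B2m and H2-D1 are highest in Slc17a7 and Sst nuclei and H2-K1 in Aqp4 nuclei. Ifit3, Ifitm3 and Bst2 lie near 0 throughout, and Mavs does so outside Aqp4 nuclei.

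The light chain B2m, without which class I molecules do not reach the surface, was found in every class. It was detected in 50 of 134 Slc17a7 nuclei (37.3%, interval 29.1% to 46.1%) and in 40 of 114 Sst nuclei (35.1%, 26.4% to 44.6%). It followed in 18 of 92 Pvalb nuclei (19.6%), 5 of 35 Aqp4 (14.3%), 5 of 37 Mog (13.5%) and 14 of 214 Rgs9 nuclei (6.54%, 3.62% to 10.7%). The first pair overlap in their intervals, as do the 3 classes in the middle, and the Rgs9 interval lies below those of Slc17a7 and Sst. By pooled CPM, Slc17a7 nuclei lay at 120, Sst at 111 and Rgs9 at 30.1, with glia above Pvalb nuclei (79.8 and 76.2 against 45.5). Without the 1 library with endothelial markers in each, Slc17a7 nuclei lay at 90.6 CPM, below Sst, and Rgs9 nuclei at 18.6 CPM.

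Over the sums, B2m had reads in 15 of 15 Sst sums (17.7 to 309 CPM, median 89.7) and in 13 of 14 Slc17a7 sums (0 to 822, median 106). It had reads in 8 of 14 Rgs9 sums, with a median of 3.51 and a highest value of 323 CPM. The highest Slc17a7 and Rgs9 sums each hold a library with endothelial markers, and the next ones lie at 180.5 and 89.2 CPM. The ranges overlap with or without those sums. Rgs9 against the 3 cortical neuron classes gave a log2 difference of −1.42 ± 1.12 (SE), which was not called by edgeR's quasi-likelihood test (adjusted p = 0.608). On the mean of log2(CPM + 1), limma gave −1.47 with an adjusted p of 0.00768, so this call depends on the scale. Of 6 tested genes of the list 0 were called in this comparison, against 9.06% of 13749 genes. Without the libraries with endothelial markers 0 were called as well, against 9.58%.

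Mitochondrial share and library pool moved with B2m among excitatory nuclei. Where mitochondrial reads exceeded 0.3% of the total, 25 of 29 Slc17a7 nuclei had B2m, against 25 of 105 below it. Over all kept nuclei the shares were 57.5% and 16.4%. Of the 87 nuclei above 0.3%, 58 are in library pool S40317, named by the code that starts each library name, which the labels do not explain. That pool holds 54 of the 134 Slc17a7 nuclei and 0 of the Rgs9 class. By pool, B2m was found in 27 of 54 (S40317), 15 of 47 (S40325) and 8 of 33 (S40327) Slc17a7 nuclei. In the same order Ifnar2 was found in 14, 8 and 5 of them. The part of mitochondrial share and pool in these differences was not tested.

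The heavy chain H2-D1 followed B2m across neurons. Reads were found in 32 of 134 Slc17a7 (23.9%), 25 of 114 Sst (21.9%), 5 of 37 Mog (13.5%), 3 of 35 Aqp4 (8.57%), 7 of 92 Pvalb (7.61%) and 11 of 214 Rgs9 nuclei (5.14%). The Slc17a7 and Sst intervals start at 16.9% and 14.7%, above the upper bound of 9.01% for Rgs9, and that of Slc17a7 also lies above the 15.1% for Pvalb. All 15 Sst sums had H2-D1 reads (0.26 to 303 CPM, median 80.05), against 5 of 13 Pvalb sums (0 to 126 CPM, median 0), so the medians are apart while the ranges overlap. Of the 188 genes called between Sst and Pvalb nuclei (1.37% of 13749 tested), none was one of the 9, nor was any without the libraries with endothelial markers (1.42%). H2-D1 gave a log2 difference of 4.80 ± 1.82 with an edgeR adjusted p of 0.227. It was called by DESeq2 (adjusted p = 0.00130) and limma (0.0366), and by edgeR among nuclei with at most 0.3% mitochondrial reads (8.11, adjusted p = 0.0338) or without pool S40317 (9.46, adjusted p = 0.0238). By pool, the shares of Sst nuclei with H2-D1 were 10 of 46 (S40325) and 13 of 61 (S40327), against 2 of 40 and 1 of 36 Pvalb nuclei. In S40317 they were 2 of 7 Sst and 4 of 16 Pvalb nuclei.

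H2-K1, the other classical heavy chain, was found in a larger share of Aqp4 nuclei than of any neuron class. It was detected in 12 of 35 Aqp4 nuclei (34.3%, interval 19.1% to 52.2%) and 6 of 37 Mog nuclei (16.2%, 6.19% to 32.01%). Among neurons it was found in 4 of 114 Sst (3.51%), 4 of 134 Slc17a7 (2.99%), 2 of 92 Pvalb (2.17%) and 3 of 214 Rgs9 nuclei (1.402%). Pooled levels were 125 CPM in glia and 4.41 CPM in neurons. Of the other positive nuclei, 12 met more than 1 class rule and 9 met none. Of the 13 neurons with reads, 10 had 1 to 3 reads, 2 were libraries with endothelial markers (394 and 152 reads) and 1 had 75 reads. Without those libraries neurons held 0.63 CPM.

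All 8 Aqp4 sums had H2-K1 reads, from 39.7 to 869 CPM with a median of 169. Of 6 Mog sums 5 had reads, from 0 to 79.6 CPM with a median of 7.13. In neuron sums the medians of all 4 classes were 0. A Slc17a7 sum at 313 CPM and a Rgs9 sum at 83.8 CPM each hold a library with endothelial markers, and the other neuron sums reach at most 1.16 CPM, below every Aqp4 sum. That Rgs9 sum also holds the nucleus with 75 reads, which is not such a library.

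Glia against neurons gave a log2 difference of 9.24 ± 1.12 for H2-K1 (edgeR adjusted p = 3.83e-10), and 9.12 without the 7 libraries. This log2 value is a contrast of class coefficients of the edgeR fit, which weighs the classes of each side equally and has the title as a block. It need not equal the log2 ratio of pooled CPM, and here it is larger. The size depends on the tool (2.11 with limma on log2(CPM + 1), 13.8 with DESeq2), while each fitted alternative called it. H2-K1 was the 1 of 6 tested genes of the list that was called here, where 52.1% of all 13749 tested genes were. The background is mostly in the other direction (326 higher and 6836 lower, median log2 of −3.03 over all genes), in nuclei with fewer genes. Of the others, B2m (0.18, adjusted p = 0.962), H2-D1 (−0.43, 0.889), Ifnar1 (−3.01, 0.131), Ifnar2 (−1.60, 0.415) and Ifit3 (1.398, 0.213) were not called by edgeR. Without the libraries with endothelial markers, where 50.3% of all genes were called, Ifit3 was called higher in glia (1.79, adjusted p = 0.0191) on 2 glial nuclei.

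**Figure D3:**
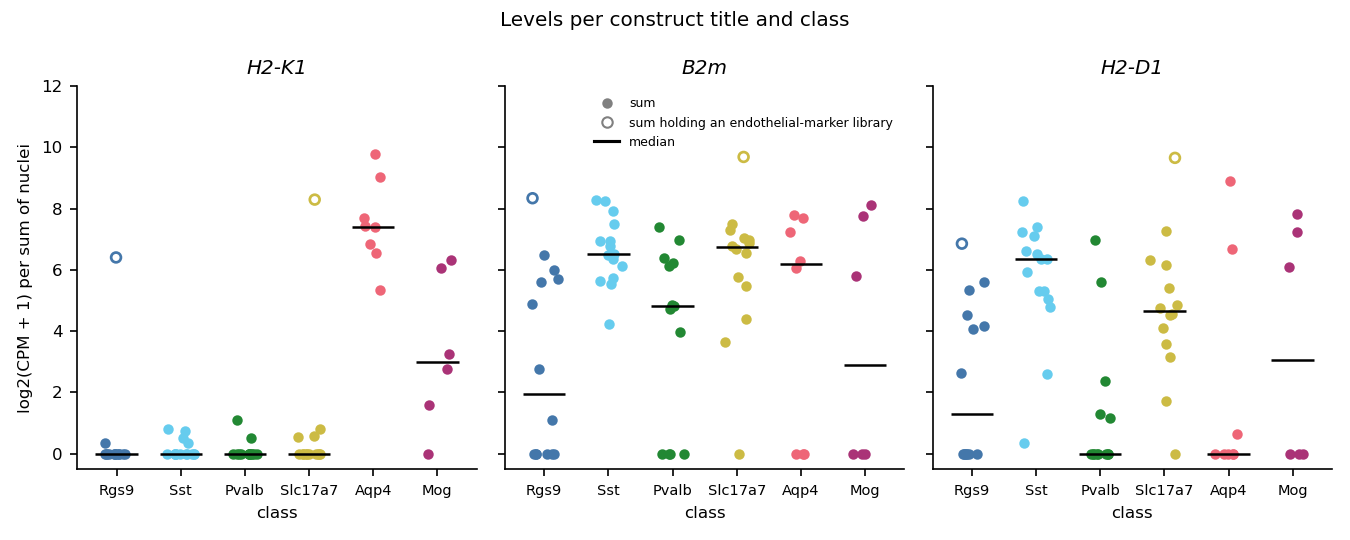
Level of selected genes as log2(CPM + 1) (vertical) in each of the 70 sums of nuclei by title and class (horizontal); open circles are sums that hold a library with endothelial markers, and the short lines are medians. H2-K1 is above 39 CPM in all 8 Aqp4 sums, and neuron sums lie near 0 except those with open circles.

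Between the glial classes, Aqp4 against Mog gave 4.36 ± 1.76 for H2-K1 with an edgeR adjusted p of 0.0893 (0 of 6 genes of the list called, 13.4% of all genes). With at least 5 nuclei per sum it turned to −3.80, and both DESeq2 (0.0302) and limma (3.85e-06) called it, so the order of the glial classes is unsettled. The Aqp4 signal came mostly from 1 pool: 11 of 25 nuclei in S40327, 0 of 5 in S40325 and 1 of 5 in S40317. Neurons of S40327 had H2-K1 in 1 of 73 Rgs9, 1 of 61 Sst, 0 of 36 Pvalb and 1 of 33 Slc17a7 nuclei, so the glial excess is present within that pool. In the 12 Aqp4 nuclei with H2-K1, 8 of 9 endothelial, 8 of 12 microglial, 8 of 9 T cell and macrophage and 4 of 4 oligodendrocyte precursor markers were at 0. The nuclei with 232, 175, 147, 98 and 45 H2-K1 reads each had reads of 1 microglial marker, and the rest of the 12 had none. Of 8 pericyte and fibroblast markers, 7 were at 0 and Pdgfrb had reads in 6 of the 12 nuclei. In the 6 Mog nuclei with H2-K1 all of these markers were at 0. The nucleus with the most H2-K1 reads (746) met no class rule.

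Co-detection within nuclei was loose. In the 828 libraries without endothelial markers, 37 nuclei had both B2m (166 nuclei) and H2-D1 (113), 17 had both H2-D1 and H2-K1 (45), and 8 had both B2m and H2-K1. Reads of H2-K1 and H2-D1 could be split between these near-identical genes by the authors' counting, so each value is uncertain to that extent. B2m also overlaps Patl2 on the other strand (B2m at 2:122147686-122153083, build GRCm38), and the counting is not stated to use strand.

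Ifnar1, the chain that binds the kinase TYK2, was present in all 6 classes. It was found in 30 of 134 Slc17a7 (22.4%, interval 15.6% to 30.4%), 28 of 214 Rgs9 (13.1%), 12 of 92 Pvalb (13.04%), 11 of 114 Sst (9.65%), 3 of 37 Mog (8.11%) and 2 of 35 Aqp4 nuclei (5.71%, 0.70% to 19.2%). Neighbours in this order overlap in their intervals. Pooled levels ran from 47.8 CPM in Slc17a7 to 20.9 CPM in Aqp4 nuclei, and 13 of 14 Rgs9 sums and 13 of 14 Slc17a7 sums had reads, with medians of 52.6 and 21.9 CPM. Of 15 Sst sums 7 had reads, with a median of 0. Neither Rgs9 against cortical neurons (1.44 ± 1.19, adjusted p = 0.634) nor Slc17a7 against interneurons (0.28 ± 1.18, 0.966) was called by edgeR.

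Ifnar2, the chain that binds interferon tightly and works with the kinase JAK1, was found in 27 of 134 Slc17a7 nuclei (20.1%, interval 13.7% to 27.9%). It lay between 5.43% and 8.77% in the other 5 classes, with 15 of 214 Rgs9, 10 of 114 Sst, 5 of 92 Pvalb, 3 of 35 Aqp4 and 3 of 37 Mog nuclei. Levels gave another order, with 47.1 CPM in Aqp4 and 39.8 CPM in Mog nuclei above 24.5 CPM in Slc17a7 nuclei, because 3 nuclei in each glial class held many reads. Slc17a7 against interneurons gave 2.53 ± 1.57 (edgeR adjusted p = 0.419), with 0 of 6 genes of the list called and 9.37% of all genes. The median of all genes was 0.53 in that comparison. Outside the 7 libraries, 19 nuclei had both chains, of 104 with Ifnar1 and 85 with Ifnar2. Across the 70 sums the genes most like Ifnar1 in level were Mtmr3 (Pearson r = 0.56), Zcchc14 (0.54) and Epha4 (0.52), and those most like Ifnar2 were Pdcl (0.51), Neu2 (0.49) and Ddx58 (0.46), of 13748 compared. For B2m they were Fmnl2 (0.52), Psme2 (0.51) and Dpysl2 (0.48), and for H2-D1 they were Rab5if (0.52), Rnf181 (0.51) and Fah (0.50). The sums share depth and class, and these values are descriptions.

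Mavs was carried by 9 nuclei in all. The Aqp4 class held 3 of them (525, 492 and 113 reads), the Mog class 1 (465), the Sst class 1 (188) and the Slc17a7 class 2 (37, in a library with endothelial markers, and 14), and 2 met no class rule (114 and 45). It was seen in 0 of 214 Rgs9 and 0 of 92 Pvalb nuclei, which allows shares of up to 1.402% and 3.26%. Pooled levels were 107 CPM in Aqp4 and 37.7 CPM in Mog nuclei against 6.34 and 1.53 CPM in Sst and Slc17a7 nuclei, each from 1 to 3 nuclei. Mavs did not pass the low-count filter of the class fits and was not tested between classes.

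The interferon-induced effectors were the rarest group. Ifit3 was found in 5 Sst nuclei (24 reads in the median one) and in 1 each of the Rgs9, Slc17a7, Aqp4 and Mog classes, with 288 reads in the Aqp4 nucleus. The Rgs9 and Slc17a7 carriers (6 and 167 reads) are libraries with endothelial markers, and without them both classes had 0. The 5 Sst nuclei came from 5 different titles, and 0 of 92 Pvalb nuclei had a read. The Sst level was 7.46 CPM against 0 in Pvalb nuclei (edgeR adjusted p = 0.122). No fold is given against a class at 0, since 1 positive nucleus usually holds many reads. Ifitm3 was seen in 2 Rgs9 nuclei and 1 Slc17a7 nucleus, of which 2 of 3 are libraries with endothelial markers, and in none of the other 4 classes. Of its 13 nuclei, 7 were libraries with endothelial markers, and without them its share over all kept nuclei fell from 1.56% to 0.72%. The same holds for Bst2, with 7 of 13 nuclei in those libraries and the same shares. Outside them Bst2 was found in 3 Slc17a7 nuclei (42, 24 and 21 reads), 1 Mog nucleus (65 reads) and 2 nuclei without a class. Reads of Ifit3 could also be split with Ifit3b, and those of Ifitm3 with its neighbours in the Ifitm family.

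The wider interferon and antigen presentation lists were read in the same class fits. Of 28 listed interferon-induced effectors 26 are in the table and 11 were tested, with 13 of 20 class I genes, 14 of 17 receptor and signalling genes, 6 of 17 sensing genes and 3 of 7 class II genes.

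In Sst nuclei Ifit1 and Lgals3bp were higher than in Pvalb nuclei. These are 2 of 11 tested effectors, where 1.37% of all genes were called, and 0 fell, with a list median of 4.23 against 0.08 over all genes. Ifit1, Lgals3bp and Ifit3 had 0 reads in Pvalb nuclei and passed the low-count filter on reads of other classes. Their log2 values against a class at 0 have no fixed size, so nothing is read from the list median. Ifit1, which binds RNA that lacks cap methylation, had reads in 19 of 114 Sst nuclei (87.6 CPM) and in 0 of 92 Pvalb nuclei (edgeR adjusted p = 0.00207). Of 15 Sst sums 10 had it, from 0 to 302 CPM with a median of 75.3, while all 13 Pvalb sums were at 0. No library with endothelial markers is among the 19, and the call held without those libraries (adjusted p = 0.00541). In the other classes Ifit1 was found in 2 Rgs9 nuclei and 1 Slc17a7 nucleus, and in 0 of 72 glia. Of those nuclei, 1 of the 2 and the only Slc17a7 nucleus are libraries with endothelial markers. Of all 28 kept nuclei with Ifit1, some of them in no single class, 6 are such libraries. By pool Ifit1 was seen in 15 of 61 (S40327), 3 of 46 (S40325) and 1 of 7 (S40317) Sst nuclei. Lgals3bp, a secreted galectin-3 binding protein, also rose (7 Sst and 0 Pvalb nuclei, edgeR adjusted p = 0.00735). Ifit2 was found in 18 Sst and 5 Pvalb nuclei, and neither it nor Ifit3 was called there. Of the 34 Sst nuclei with any of Ifit1, Ifit2 and Ifit3, 6 had both Ifit1 and Ifit2, 2 had Ifit2 and Ifit3, and 0 had Ifit1 and Ifit3. Most such nuclei thus carried a single IFIT gene.

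**Figure D4:**
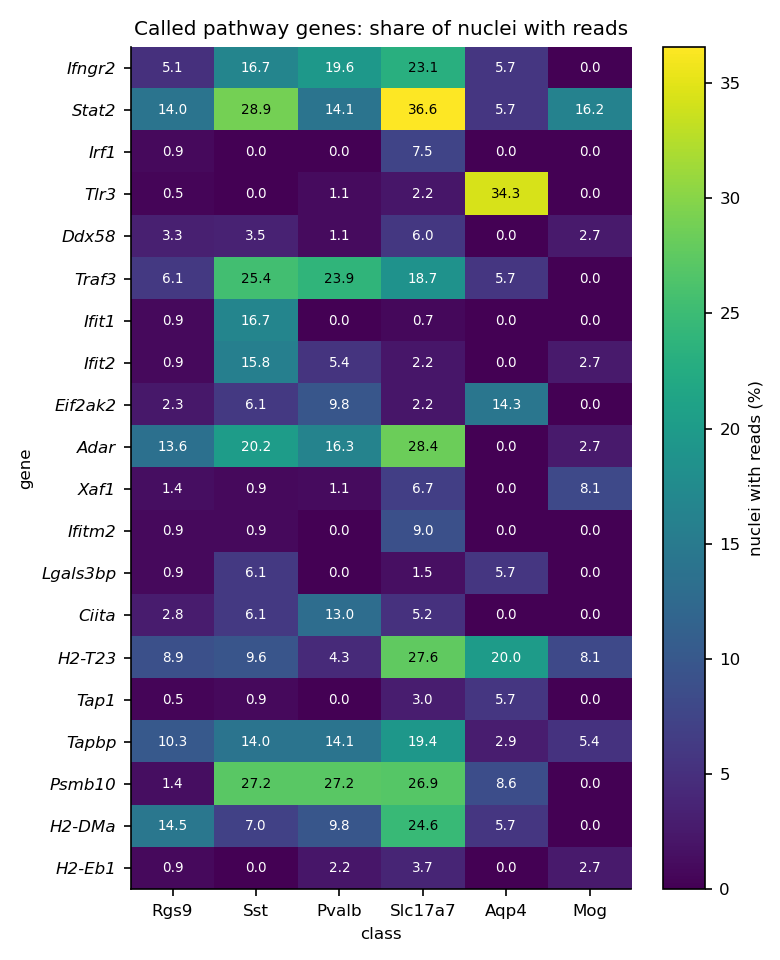
Share of nuclei with reads (colour, percent) of the interferon and antigen presentation genes called in a class comparison (rows), in the 6 classes (columns). Ifit1 stands out in Sst nuclei at 16.7%, Tlr3 in Aqp4 nuclei at 34.3%, H2-T23 in Slc17a7 nuclei at 27.6%, and Psmb10 is low in Rgs9 nuclei at 1.402%.

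In excitatory nuclei, 2 of 13 tested class I genes, 3 of 11 effectors, 1 of 14 signalling genes and 1 of 3 class II genes rose against interneurons, and none fell. Of all 13749 genes 9.37% were called, with 1129 higher and 159 lower, so the class I and signalling counts lie near the background. H2-T23, the non-classical heavy chain Qa-1, was found in 37 of 134 Slc17a7 nuclei (84.1 CPM) against 15 of 206 interneurons (7.56 CPM), with a log2 difference of 6.86 ± 1.14 (edgeR adjusted p = 5.58e-06). The call held without the libraries with endothelial markers (4.04e-06). In pool S40325 it was found in 11 of 47 Slc17a7, 8 of 46 Sst and 3 of 40 Pvalb nuclei, at 95.3, 3.78 and 8.37 CPM. In S40327 it was found in 6 of 33, 3 of 61 and 1 of 36, at 78.6, 17.96 and 0.35 CPM. Xaf1, a proapoptotic interferon-stimulated gene, rose as well (4.90 ± 1.15, adjusted p = 0.00241) on 9 Slc17a7 nuclei, and so did H2-Eb1 (3.54, adjusted p = 0.0464) on 5. Of the 9 Xaf1 nuclei, 6 were in pool S40317, which holds most nuclei with over 0.3% mitochondrial reads, 3 in S40325 and 0 in S40327. Irf1, a transcription factor of the interferon response, had reads in 10 Slc17a7 nuclei and 0 of 206 interneurons (edgeR adjusted p = 0.000171), and Ifitm2 in 12 and 1 (adjusted p = 0.000139). By pool, in the same order, Irf1 was in 4, 6 and 0 and Ifitm2 in 7, 5 and 0 Slc17a7 nuclei. The part of pool and mitochondrial share in these differences was not tested. Neither gene passed the low-count filter without the 7 libraries. The peptide transporter Tap1 (4.78, adjusted p = 0.0414, on 4 nuclei) lost its call without them (0.142). Irgm1, an interferon-induced GTPase outside the rule for named genes and named after its value was seen, was the third effector called (4.73, adjusted p = 0.0265).

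Psmb10, an interferon-inducible subunit of the immunoproteasome, was low in striatal projection nuclei. It was found in 3 of 214 Rgs9 nuclei (2.31 CPM) against 31 of 114 Sst, 25 of 92 Pvalb and 36 of 134 Slc17a7 nuclei (56.6, 53.8 and 51.4 CPM). It fell by 7.40 ± 1.59 on the log2 scale (edgeR adjusted p = 0.000585), the 1 call among 13 tested class I genes, a share near the 9.06% of all genes called. The Rgs9 shares were 3 of 141 (S40325) and 0 of 73 (S40327), and each cortical class exceeded them within both pools.

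Among glia, Aqp4 nuclei carried the double-stranded RNA receptor Tlr3 in 12 of 35 nuclei (167 CPM), from all 3 pools, against 0 of 37 Mog nuclei (edgeR adjusted p = 0.0332). The RNA-activated kinase gene Eif2ak2 rose too (5 Aqp4 and 0 Mog nuclei, edgeR adjusted p = 0.0452), as did Psmb10 (3 and 0 nuclei, 0.0362). Stat2, a transcription factor downstream of the receptor, was lower in Aqp4 nuclei (2 of 35 against 6 of 37, 2.17 against 41.8 CPM, edgeR adjusted p = 0.00866). In the Mog class 1 nucleus held 51.4% of its reads, and 3 of 6 sums had any. Xaf1 was at 0 in Aqp4 nuclei and in 3 Mog nuclei (0.0203). These calls are 2 of 6 sensing, 1 of 13 class I, 1 of 14 signalling and 1 of 11 effector genes. Of all 13749 genes 13.4% were called here, and nothing is read from these counts.

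Against neurons, the mean of the Aqp4 and Mog classes was lower in 3 of 14 signalling genes (Ifngr2, Stat2 and, named after its value was seen, Tyk2), 2 of 6 sensing genes (Traf3 and Ddx58), 2 of 11 effectors (Adar and Ifit2), 2 of 13 class I genes (Tapbp and Psmb10) and 2 of 3 class II genes (H2-DMa and Ciita). Of all 13749 genes 52.1% were called here, 6836 of them lower, and nothing is read from these counts against that background. The only gene of these lists called higher was H2-K1. For example, the RNA-editing enzyme gene Adar was found in 105 of 554 neurons (28.9 CPM) and 1 of 72 glia (1.13 CPM), with an edgeR adjusted p of 7.34e-06. The 2 glial classes can differ: Stat2 lay at 2.17 CPM in Aqp4 and 41.8 CPM in Mog nuclei, beside 41.9 CPM in neurons. H2-DMa lay at 21.9 CPM in Aqp4 and 0 in Mog nuclei, beside 23.6 CPM in neurons. The list medians (−1.98, −2.002, −1.10, −0.43 and −4.29, in the order above) lie beside −3.03 for all genes. Without the libraries with endothelial markers Ifit2 was not called (0.0886) and Ddx58 was not tested.

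The nuclei can also be compared by construct title. The treatment codes do not follow the titles, so which construct a nucleus received is not settled by its labels. Position and copies were not tested with the code as sample. For each of the 6 elements, a title with the element after SYFP2-H2B was set against the one with it before, over all kept nuclei (259 and 260). No gene of 13620 was called by edgeR (0.0%, with 302 at an unadjusted p under 0.05), and so 0 of 8 tested genes of the list. DESeq2 called 83 genes, among them Ifnar2 and H2-K1. Classes make up different shares of each title's nuclei, and their part in these differences was not tested.

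Ifnar2 was higher in all 6 pairs when the element stood after the reporter. In CPM, it went from 14.9 before to 78.6 after for 3xsmOPT, from 19.5 to 54.9 for BORG, from 9.82 to 29.9 for U7snRNAOPT, from 4.01 to 26.7 for 3xBORG, from 4.37 to 26.2 for U7snRNAOPT-3'box and from 3.89 to 16.1 for 3xU7snRNAOPT. Of the titles with the element before, only BORG at 19.5 CPM reaches into the range of those after, 16.1 to 78.6 CPM. Nuclei with reads hardly differed, at 33 of 259 and 27 of 260, so the gap lies in reads per positive nucleus. Without the libraries with endothelial markers the pooled levels were 36.9 and 8.74 CPM, again higher in 6 of 6 pairs. The log2 difference was 2.20 ± 0.48 (edgeR adjusted p = 1.0, DESeq2 adjusted p = 0.00407), and 2.12 to 2.30 with any 1 element left out.

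H2-K1 was higher after in 5 of 6 pairs, with 25 against 14 nuclei and 62.5 against 15.8 CPM. The pairs went from 9.63 to 88.8 CPM for BORG, from 39.3 to 84.7 for U7snRNAOPT, from 2.58 to 83.4 for 3xsmOPT, from 16.9 to 66.5 for 3xU7snRNAOPT and from 0.17 to 31.8 for U7snRNAOPT-3'box, and 3xBORG went from 21.3 to 19.1. The log2 difference was 2.92 ± 0.99 (edgeR adjusted p = 1.0, DESeq2 0.0190) and turned to −0.14 among nuclei with at least 2000 genes, a filter that leaves no sum of Aqp4 or Mog nuclei. Ifit3 had reads in 8 nuclei after and 1 before (6.23 and 0.36 CPM, higher in 5 of 6 pairs) and was not tested. Ifnar1 went the other way in 5 of 6 pairs (25.2 against 41.1 CPM), while B2m (91.1 and 89.7 CPM) and H2-D1 (61.5 and 60.2 CPM) were level.

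**Figure D5:**
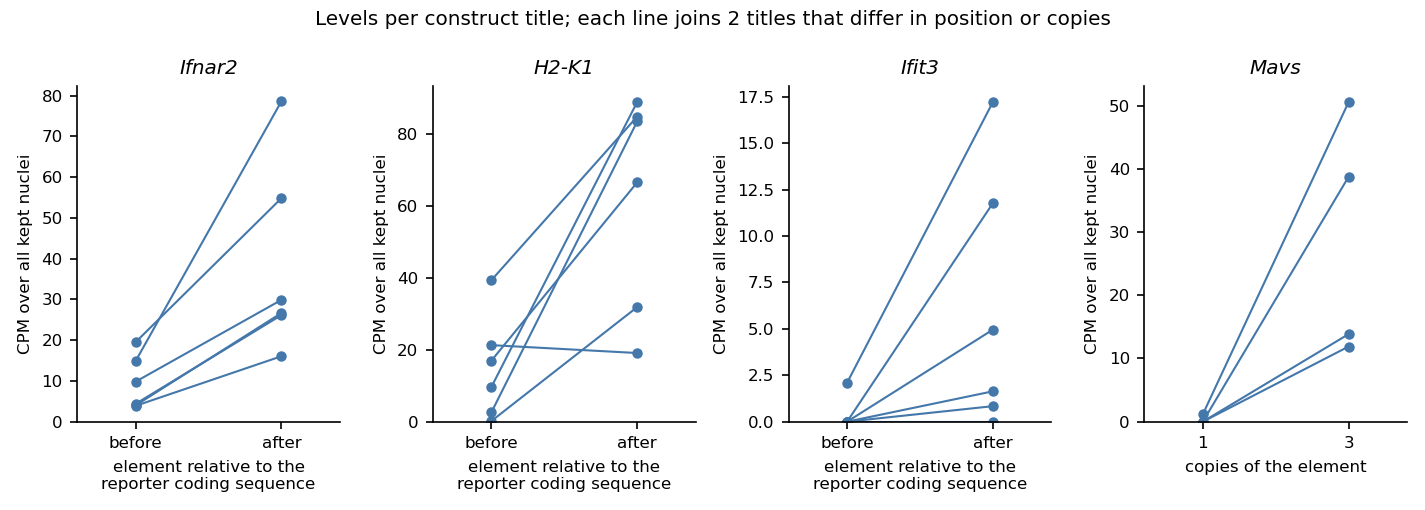
Pooled level (vertical, CPM over all kept nuclei) of Ifnar2, H2-K1 and Ifit3 with the element before or after the reporter sequence, and of Mavs with 1 or 3 copies of the element; each line joins 2 titles. All 6 Ifnar2 lines rise, and all 4 Mavs lines start near 0.

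Titles with 3 copies of an element were set against those with 1, in 4 pairs (BORG and U7snRNAOPT, before and after; 167 and 177 nuclei). No gene of 13834 was called by edgeR (0.0%, with 281 at an unadjusted p under 0.05), and DESeq2 called 83, among them Mavs and Ifitm3. Mavs had 1289 reads with 3 copies and 14 with 1, higher in 4 of 4 pairs, but in 5 nuclei against 1 (log2 8.48 ± 1.77, edgeR adjusted p = 1.0, DESeq2 9.65e-07). Ifitm3 had 10 reads against 906, in 1 nucleus against 4 (−7.99 ± 2.02, edgeR adjusted p = 1.0, DESeq2 0.000176), and 10 against 158 without the libraries with endothelial markers. Ifnar2 was lower in 4 of 4 pairs (12.8 against 28.1 CPM, log2 −1.37 ± 0.71), and so was H2-D1 (45.6 against 88.01 CPM), which without those libraries was at 45.6 against 49.9 CPM and lower in 3 of 4. B2m lay at 102 and 88.9 CPM, and at 102 and 63.7 CPM without those libraries.

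Within classes no gene was called by edgeR in any of the 6 fits that could be made. Position was tested in the Rgs9 (7914 genes, 175 at an unadjusted p under 0.05), Sst (8230, 208), Pvalb (7293, 91) and Slc17a7 nuclei (9563, 152), and copies in the Sst (8271, 126) and Slc17a7 nuclei (10466, 62), each with 0.0% called. The largest difference among the listed genes was that of B2m in Pvalb nuclei by position (7.45 ± 3.46, adjusted p = 1.0). Only 1 to 4 of the 9 genes passed the low-count filter in each of these fits, so the others were not tested within classes.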

How the data were processed

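Single sorted nuclei were profiled with SMART-Seq v4 on polyA RNA and Nextera XT libraries, per the labels' protocols. The authors deposited whole-number read counts per gene and nucleus. The submitters' processing notes name STAR 2.7.2a and the mouse build mm10. How reads were counted is not given in the sources used here. The table has 2501 columns, of which 904 match the samples by library name and 1597 were not used. Of 904 nuclei, 69 fell under the minimums of 1000 genes and 10000 reads. The 9 genes and all lists were chosen with earlier results of these data known.

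Counts were summed per construct title and class over at least 3 nuclei and tested with edgeR 4.0.16 (quasi-likelihood, TMM scaling, filterByExpr, title as a block) over all genes, with Benjamini-Hochberg adjustment. Genes under an adjusted p of 0.05 are called. Position and copies were tested on sums over all nuclei and within classes. The block was the element for position, and the pair that shares element and position for copies. Intervals are exact Clopper-Pearson at 95%, and a count of 0 nuclei allows 3. The tests were tried on simulated data, within classes only for Slc17a7 and Sst nuclei. The genes changed there were ones with more reads, so these runs say little of genes read in few nuclei. Alternatives used DESeq2 1.42.0, limma 3.58.1 on log2(CPM + 1), other scaling and filters, and left-out elements or pools. Named pathway genes are the 2 with the smallest p per list and direction among those called, and the likeness of genes was taken over the 70 sums for genes in at least 10% of nuclei. Doublets were not called, and nuclei meeting more than 1 class rule entered no class. Title numbers only count nuclei and pair nothing.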

Additional observations from a re-analysis of the deposited data

Results flagged for a closer look

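Levels over all kept nuclei were compared within groups of 4 or 6 construct titles, in 36 groups of gene and element position or copies, and 11 had a highest title far from the next one. Chance gives such a gap in about 1 in 20 groups of normally spread values, a rate that need not hold for groups mostly at 0, and in 5 of the 11 the next title is at 0. Of the highest levels, 8 rest on 1 or 2 nuclei with reads. Among titles with the element after SYFP2-H2B, Ifitm3 was at 65.3 CPM in SYFP2-H2B-3xsmOPT-BC, with the next title at 18.9 CPM. That title holds 2 of the libraries with endothelial markers.

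Among titles with the element before, U7snRNAOPT-SYFP2-H2B-BC stood apart for 3 genes, with 41.5 CPM of Ifitm3 (next 7.22), 160.03 CPM of B2m (next 94.4) and 15.2 CPM of Bst2 (next 2.21). It holds 1 such library, the one that also had reads of 8 microglial markers. Mavs was at 44.4 CPM in 3xsmOPT-SYFP2-H2B-BC (next 13.9), from 1 Mog nucleus, and Ifit3 was at 2.10 CPM in U7snRNAOPT-3'box-SYFP2-H2B-BC, with 0 in the others.

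Among titles with 1 copy, SYFP2-H2B-BORG-BC alone had reads of Mavs (1.17 CPM) and of Ifit3 (0.84 CPM). Among titles with 3 copies, SYFP2-H2B-3xU7snRNAOPT-BC had 66.5 CPM of H2-K1 (next 21.3) and was the only title with Ifitm3 (0.79 CPM), and 3xU7snRNAOPT-SYFP2-H2B-BC was the only title with Bst2 (2.21 CPM).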

How the results depend on the processing

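The limits are the few nuclei behind each gene, reads without molecular identifiers, and classes cut by single genes. H2-K1 in glia against neurons kept its call under each alternative fitted. The glial comparisons could not be fitted with at least 2000 genes per nucleus, nor the class fits without pool S40327, which leaves no Mog sum. The libraries with endothelial markers, the mitochondrial limit and the left-out elements within classes were chosen after seeing the data. Except where stated, the cause of a change was not tested.

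Genes called in glia against neurons were 3688 with at least 5 nuclei per sum. In Aqp4 against Mog there were 5276 with DESeq2, 487 with at least 5 nuclei per sum and 1129 with limma. In Rgs9 against cortical neurons there were 2302 with DESeq2, 812 with nuclei placed in the first class met, 3337 with limma and 623 without pool S40325. In Slc17a7 against interneurons there were 2000 with DESeq2, 839 with at least 5 nuclei per sum, 2587 with limma, 839 with at most 0.3% mitochondrial reads, 523 without pool S40317 and 669 without S40325. In Sst against Pvalb there were 1043 with DESeq2, 79 with at least 5 nuclei per sum, 781 with limma, 72 without S40317 and 37 without S40325. By position DESeq2 called 83 genes. By copies DESeq2 called 83, and no low-count filter and at least 2000 genes called 1 each. Within classes, at least 2 nuclei per sum called 1 by copies in Sst nuclei and 1 by position in Pvalb nuclei, and limma called 1 by position in Slc17a7 nuclei. Leaving out 1 pair gave 0 to 1 by copies in Slc17a7 nuclei and 0 to 3 in Sst nuclei, both highest without the U7snRNAOPT pair before SYFP2-H2B. Leaving out 1 element gave by position 0 to 4 in Pvalb nuclei (1 without U7snRNAOPT-3'box, 3 without 3xsmOPT, 4 without U7snRNAOPT) and 0 to 7 in Rgs9 nuclei (1 without 3xsmOPT, 6 without BORG, 7 without U7snRNAOPT).

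Of the 9 genes, DESeq2 called 2 by copies (Mavs and Ifitm3), 2 by position (Ifnar2 and H2-K1), 1 in Aqp4 against Mog (H2-K1), 1 in Slc17a7 against interneurons (H2-K1), 3 in Sst against Pvalb (H2-D1, Ifit3 and H2-K1) and 2 in glia against neurons (H2-K1 and, lower, Ifnar1). H2-K1 had 1 or 2 reads in each of 4 Sst and 2 Pvalb nuclei (0.17 and 0.12 CPM). In the Slc17a7 class 1 library with endothelial markers held 99.0% of its reads. Limma called 1 in Aqp4 against Mog (H2-K1), 2 in Rgs9 against cortical neurons (B2m and H2-D1) and 1 in Sst against Pvalb (H2-D1). With nuclei in the first class met, 1 was called in Slc17a7 against interneurons (Bst2) and 1 in Sst against Pvalb (Ifit3). Without a low-count filter, 1 was called in Slc17a7 against interneurons (Bst2). With at most 0.3% mitochondrial reads, and without S40317, 1 was called in Sst against Pvalb (H2-D1). In glia against neurons 2 were called with the treatment code as sample (H2-K1 and H2-D1, lower) and 2 without the libraries with endothelial markers (H2-K1 and Ifit3).

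Without the replicate block (the title), 4220 genes were called in Aqp4 against Mog and 749 in Sst against Pvalb. Of the 9 genes it called 1 in Rgs9 against cortical neurons (H2-K1), 2 in Slc17a7 against interneurons (H2-K1 and Ifit3), 1 in Sst against Pvalb (Ifit3) and 2 in glia against neurons (H2-K1 and Ifit3). Ifnar2 by position was 2.16 without the block.

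Log2 values that turned were H2-D1 in Rgs9 against cortical neurons (1.25 in the first class met, 0.066 with at most 0.3% mitochondrial reads), H2-K1 in Aqp4 against Mog (−3.80 with at least 5 nuclei per sum), H2-K1 in Slc17a7 against interneurons (−0.33 with at least 5 nuclei, −1.15 in the first class met) and H2-K1 by position (−0.14 with at least 2000 genes). The share of nuclei with Ifitm3 was 0.72% without the libraries with endothelial markers, and that with Bst2 0.72%. The share of Sst nuclei with H2-K1 was 0% at 10 CPM or more and 0% when each nucleus was thinned to 30000 reads, and that of Pvalb nuclei 0% at 10 CPM or more. The share with H2-D1 was 11.9% after thinning.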
